A study of Mus musculus with 9 samples.

Results

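The genes described here are 40 genes of the integrated stress response and of the unfolded protein response, out of 56748 genes listed in an RNA sequencing table of RAW264.7 cells, a mouse macrophage cell line. They were chosen by gene symbol from textbook roles: 3 stress sensors, 5 stress transcription factors, 14 targets of the transcription factor ATF4, 13 chaperones and folding enzymes of the endoplasmic reticulum (ER), and 5 genes of ER-associated degradation. Earlier results of these data were known when they were chosen. All 40 symbols were in the table, and Ddit3 had a second row without a count. The table holds 9 libraries, 3 from each of 3 groups. The P-Mn/TI@mHSA group received nanoparticles that carried nanoenzymes (materials with enzyme-like activity) together with an inhibitor of TRAF6, a ubiquitin ligase that relays signals of innate immune receptors. The P-Mn@mHSA group received particles with nanoenzymes and no inhibitor, and the PBS group received buffer. All 3 groups shared a model condition of unstated kind, with dose and time not given in the sources used here. The labels call the replicates triplicates without naming separate cultures, so a p-value here covers only the spread of these libraries, possibly a technical one.

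Stress in the ER and shortage of amino acids meet in a shared step, the phosphorylation of the translation factor eIF2α. That step lowers protein synthesis in general but raises translation of ATF4, which then switches on genes of amino acid synthesis and uptake, the pseudokinase gene Trib3, the glutathione-degrading enzyme gene Chac1 and the phosphatase subunit gene Ppp1r15a that reverses the phosphorylation. The other branches of the unfolded protein response run through IRE1, which splices Xbp1 mRNA, and through ATF6, which is cleaved to a transcription factor, and both raise ER chaperones. Macrophages use the ER heavily to make secreted cytokines and surface receptors, and XBP1 is known to take part in their Toll-like receptor responses. Gene counts show neither the phosphorylation of eIF2α, nor the translation of ATF4, nor the splicing of Xbp1.

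Levels are given as CPM, the count scaled to a common library size after TMM normalisation, and levels of different genes are compared only as FPKM, which also divides by gene length. Each library held between 13994570 and 15543439 counts. The P-Mn@mHSA replicate 2 library stood apart, with 7579 counts of the glycolysis gene Gapdh against 517 and 537 in the other libraries of its group, so counts without it are given where it matters. Macrophage markers were present, with 10 of 10 above 1 CPM, and their summed level ran from 5128 to 5509 CPM with P-Mn/TI@mHSA, from 4989 to 5290 CPM with P-Mn@mHSA and from 6275 to 6574 CPM with PBS. Summed markers of fibroblasts, epithelial, T and endothelial cells stayed at or below 6.79 CPM in every library, and Col1a2, Col3a1, Krt18, Cdh1, Cd3g and Cd8a had no count. Mitochondrially encoded transcripts took 1.11 to 1.34% of counts with P-Mn/TI@mHSA, 1.31 to 1.79% with P-Mn@mHSA and 1.77 to 2.20% with PBS. The part of these shifts in the results below was not tested. In bulk RNA, fewer cells of a kind and less RNA per cell cannot be told apart.

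The question of both comparisons with PBS is what the particles did to these cells. Genes were called changed at an edgeR quasi-likelihood adjusted p under 0.05, adjusted over 12454 genes. Of the 40 genes 39 passed the filter on low counts. Vldlr, a lipoprotein receptor gene, had 0 counts in every library, which allows up to 0.213 CPM per library. With P-Mn/TI@mHSA 26 of the 39 genes were called, against 54.4% of all tested genes, and with P-Mn@mHSA 24 were, against 48.5%. With P-Mn/TI@mHSA 23 of 39 genes (59.0%) were higher than with PBS and 3 (7.69%) lower, where 27.1% of all tested genes were called higher and 27.3% lower. With P-Mn@mHSA 23 (59.0%) were higher and 1 (2.56%) lower, where 24.3% of all tested genes were called higher and 24.1% lower. Without P-Mn@mHSA replicate 2 the counts were 25 higher and 3 lower with P-Mn/TI@mHSA, and 23 higher and 2 lower with P-Mn@mHSA. The groups did not overlap for 29 genes (74.4%) with P-Mn/TI@mHSA, against 61.5% of all tested genes, and for 26 (66.7%) with P-Mn@mHSA, against 54.6%. The median log2 fold change of the 39 genes was 0.23 with P-Mn/TI@mHSA and 0.32 with P-Mn@mHSA, while that of all tested genes was -0.0063 with P-Mn/TI@mHSA and -0.0023 with P-Mn@mHSA. Both comparisons share the PBS libraries and are therefore not independent of each other.

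**Figure D1:**
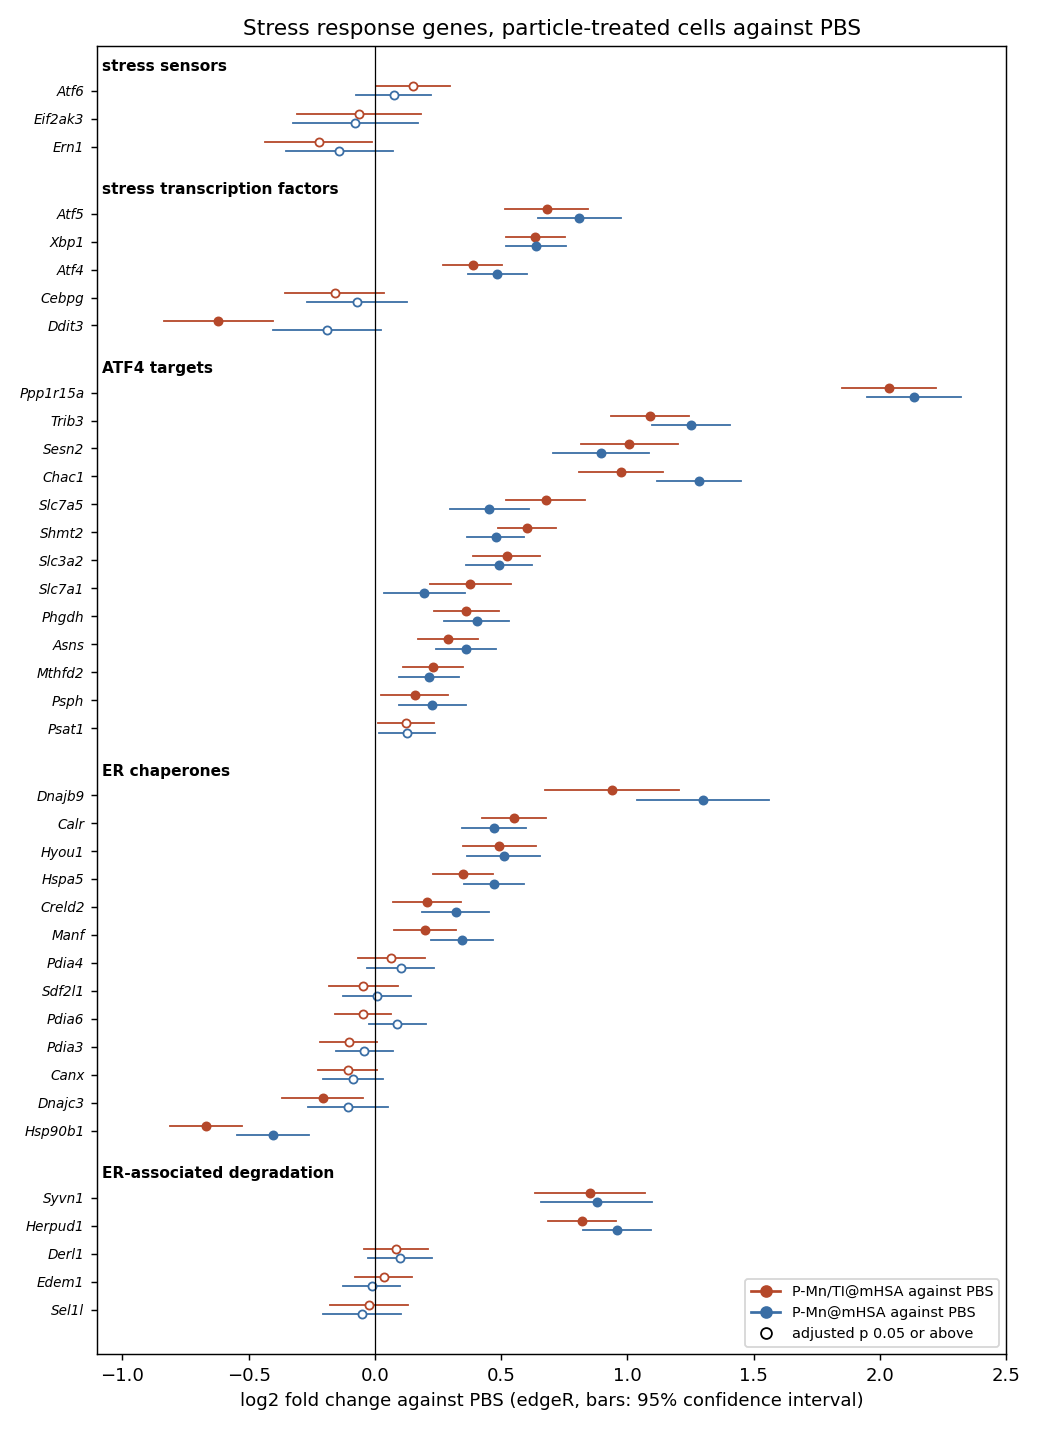
Log2 fold changes against PBS (horizontal axis, edgeR, bars are 95% confidence intervals) of the 39 tested genes, in rows grouped by role, for P-Mn/TI@mHSA and P-Mn@mHSA (n = 3 libraries per group). Filled points passed an adjusted p of 0.05. The ATF4 targets lie right of 0, led by Ppp1r15a at 2.04 for P-Mn/TI@mHSA and 2.13 for P-Mn@mHSA, while the ER chaperones spread between -0.67 for Hsp90b1 with P-Mn/TI@mHSA and 1.30 for Dnajb9 with P-Mn@mHSA.

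The stress sensors did not pass the test against PBS. Eif2ak3 (PERK, the ER kinase that phosphorylates eIF2α) had 22, 21.8 and 18.8 CPM with P-Mn/TI@mHSA, 19.1, 18.1 and 24.7 with P-Mn@mHSA and 22.2, 22 and 21.1 with PBS. Ern1 (IRE1α, the kinase and nuclease that splices Xbp1) had 41.8, 43.4 and 37.3 CPM with P-Mn/TI@mHSA, 40.2, 39.6 and 50 with P-Mn@mHSA and 41.1, 50.4 and 51.5 with PBS. Atf6, the membrane-bound transcription factor of the third branch, had 206, 199 and 175 CPM with P-Mn/TI@mHSA, 179, 172 and 198 with P-Mn@mHSA and 163, 177 and 182 with PBS. The groups overlapped for each of the 3 genes. The 95% confidence interval of the log2 fold change with P-Mn/TI@mHSA was -0.31 to 0.18 for Eif2ak3, -0.44 to -0.011 for Ern1 and 0.0033 to 0.30 for Atf6. edgeR called 0 of 3 in either direction. At an unadjusted p under 0.05 Ern1 was lower and Atf6 higher with P-Mn/TI@mHSA and neither with P-Mn@mHSA, and DESeq2 and limma called 0 in both comparisons. Leaving out 1 library ended this: Atf6 was called higher with P-Mn/TI@mHSA without P-Mn@mHSA replicate 2 (edgeR adjusted p 0.0469) or P-Mn/TI@mHSA replicate 3 (0.0204), and Ern1 was called lower with P-Mn/TI@mHSA without P-Mn@mHSA replicate 3 or PBS replicate 1, and with P-Mn@mHSA without P-Mn@mHSA replicate 3 (0.0484).

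Among the transcription factors, Atf4, Atf5 and Xbp1 rose with both particles and Ddit3 fell with P-Mn/TI@mHSA. Atf4 (ENSMUSG00000042406, chromosome 15), the centre of the integrated stress response, had 546, 549.5 and 538 CPM with P-Mn/TI@mHSA, 566, 607 and 576 with P-Mn@mHSA and 402, 419 and 429 with PBS. Every particle library lay above every PBS library, and Atf4 rose 1.31-fold with P-Mn/TI@mHSA (log2 fold change 0.39 ± 0.056, SE, edgeR adjusted p 5.59e-06) and 1.4-fold with P-Mn@mHSA (log2 fold change 0.48 ± 0.056, SE, edgeR adjusted p 3.57e-07). Xbp1 (ENSMUSG00000020484, chromosome 11), whose spliced mRNA encodes the factor of the IRE1 branch, had 307, 288 and 293 CPM with P-Mn/TI@mHSA, 299, 288 and 303 with P-Mn@mHSA and 187, 189 and 195 with PBS. The particle groups overlapped each other and lay apart from PBS, and Xbp1 rose 1.55-fold with P-Mn/TI@mHSA and 1.56-fold with P-Mn@mHSA (edgeR adjusted p 8.08e-09 and 8.95e-09). Atf5, a relative of ATF4 that is also translated under stress, had 92.9, 78.3 and 87.2 CPM with P-Mn/TI@mHSA, 88.8, 94.8 and 99 with P-Mn@mHSA and 56, 50.2 and 55 with PBS, and rose 1.6-fold with P-Mn/TI@mHSA and 1.75-fold with P-Mn@mHSA. Atf5 overlaps Nup62 in the table, a gene on the opposite strand with 32236 counts over the 9 libraries against 10300 for Atf5, and Nup62 rose by 0.39 on the log2 scale with P-Mn/TI@mHSA and by 0.31 with P-Mn@mHSA. Without a stated strand setting, reads from the overlap of the 2 genes cannot be told apart. Atf5 shares 1.81% of the 50-base stretches of its transcripts with other genes, among them Nup62.

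Ddit3 (ENSMUSG00000025408, chromosome 10) encodes CHOP, the stress factor linked to cell death that ATF4 is known to induce. It had 20.5, 19.3 and 23.2 CPM with P-Mn/TI@mHSA, 25.2, 31.7 and 28.1 with P-Mn@mHSA and 30.7, 31.8 and 34.3 with PBS. The P-Mn/TI@mHSA libraries lay below all others, and the P-Mn@mHSA libraries overlapped PBS. Ddit3 fell 1.54-fold with P-Mn/TI@mHSA (log2 fold change -0.62 ± 0.1, SE, edgeR adjusted p 3.74e-05). With P-Mn@mHSA its log2 fold change was -0.19 ± 0.1 (SE, edgeR adjusted p 0.135), and without P-Mn@mHSA replicate 2 it was -0.28 and passed (edgeR adjusted p 0.0409). Ddit3 overlaps the methionyl-tRNA synthetase gene Mars1 on the opposite strand, which had 45171 counts over the 9 libraries against 3586 for Ddit3. Mars1 rose by 0.27 on the log2 scale with P-Mn/TI@mHSA and by 0.24 with P-Mn@mHSA. Ddit3 shares 1.11% of its 50-base stretches with Mars1, and reads from that overlap have the same limit. Cebpg, which encodes a dimer partner of ATF4, had 32.9, 42.3 and 38.1 CPM with P-Mn/TI@mHSA, 36.9, 42.8 and 40.8 with P-Mn@mHSA and 43.1, 44.3 and 39.1 with PBS, with overlapping groups and no call (edgeR adjusted p 0.164 and 0.569).

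**Figure D2:**
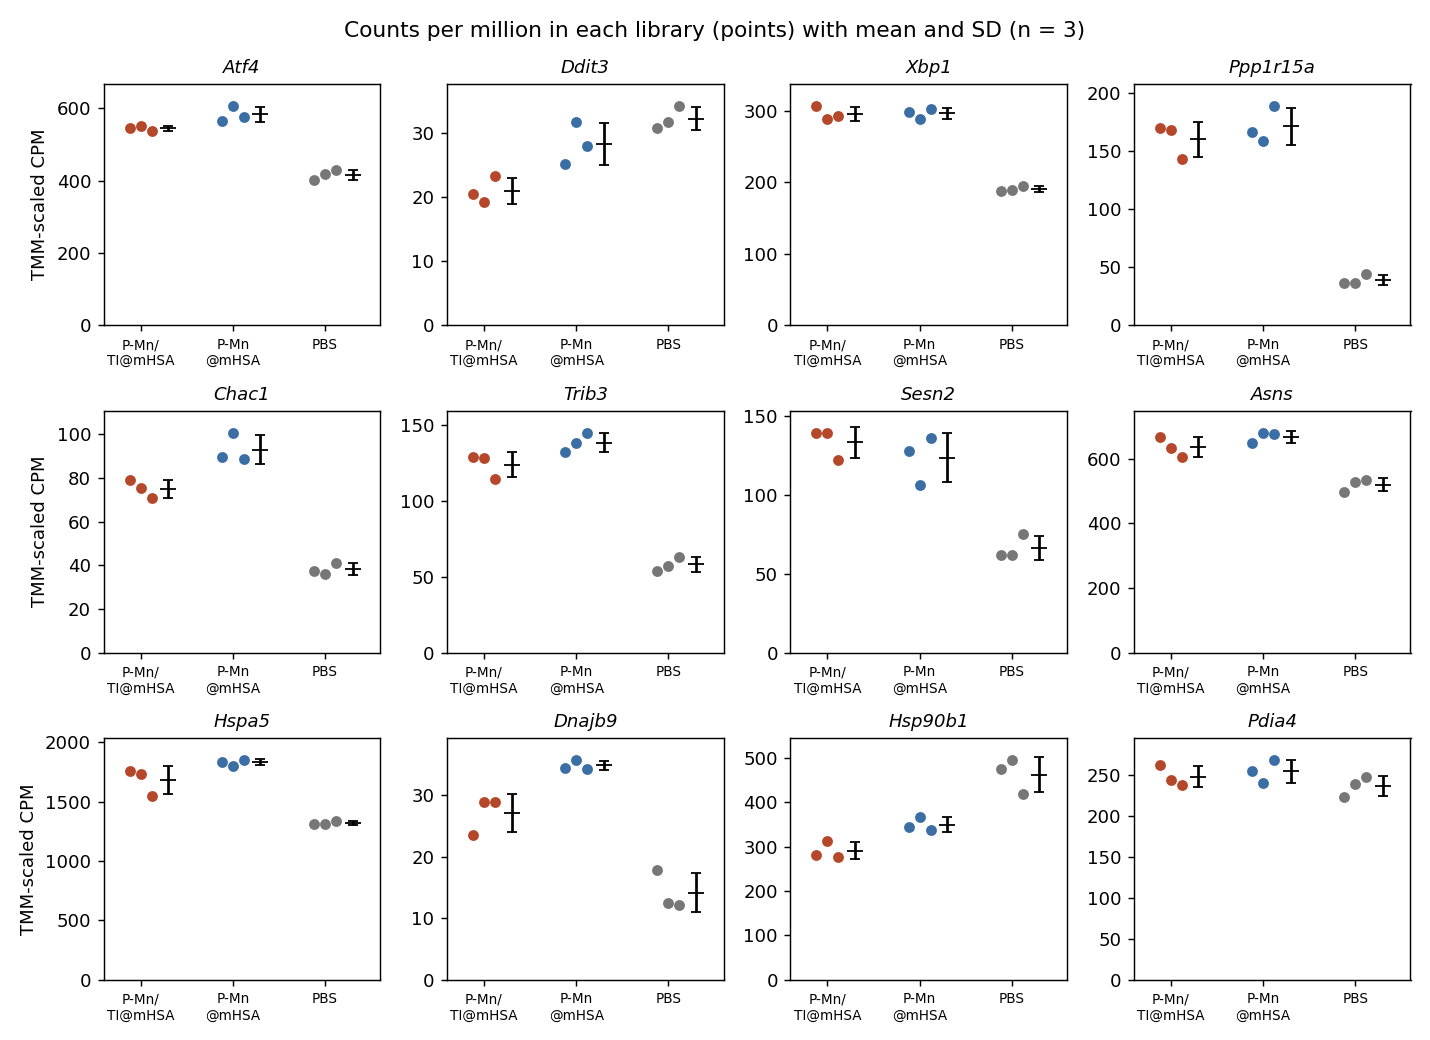
TMM-scaled CPM (vertical axes, from 0) of 12 genes in each of the 9 libraries (points), with the mean and SD of each group (n = 3) beside them. Ppp1r15a, Chac1, Trib3 and Sesn2 lie well above PBS in all 6 particle libraries, Ddit3 and Hsp90b1 are lowest with P-Mn/TI@mHSA, and Pdia4 overlaps between all 3 groups.

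The ATF4 targets moved together. With P-Mn/TI@mHSA 12 of 13 tested targets (92.3%) were higher than with PBS, against 27.1% of all tested genes. Their median log2 fold change was 0.52. With P-Mn@mHSA 12 of 13 (92.3%) were higher, against 24.3% of all tested genes, with a median of 0.45. None was lower by edgeR, by DESeq2, by limma or at an unadjusted p under 0.05. The exception in both was Psat1, an aminotransferase of serine synthesis, with 865, 829 and 848 CPM with P-Mn/TI@mHSA, 840.4, 863 and 845 with P-Mn@mHSA and 768, 776 and 789.9 with PBS. Its particle libraries all lay above PBS, but the edgeR adjusted p of 0.0542 and 0.0522 missed the threshold. DESeq2 and limma called it higher in both comparisons. These counts depend on the assignment of roles. Ddit3 was counted among the transcription factors, and further ATF4-linked genes given below include lower ones.

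The targets with the largest rises act in feedback and in redox control. Ppp1r15a (ENSMUSG00000040435, chromosome 7) encodes GADD34, which brings a phosphatase to eIF2α and restores translation. It had 169.8, 168 and 143 CPM with P-Mn/TI@mHSA, 167, 158 and 189 with P-Mn@mHSA and 36.9, 36.3 and 44 with PBS. Its log2 fold change was 2.04 ± 0.09 with P-Mn/TI@mHSA and 2.13 ± 0.09 with P-Mn@mHSA (SE, edgeR adjusted p 1.03e-13 and 4.57e-14). Chac1 (ENSMUSG00000027313, chromosome 2), an enzyme that breaks down glutathione, had 78.9, 75.2 and 70.7 CPM with P-Mn/TI@mHSA, 89.6, 101 and 88.5 with P-Mn@mHSA and 37.3, 35.9 and 41.2 with PBS. All 3 groups lay apart, with P-Mn@mHSA highest, and Chac1 rose 1.96-fold with P-Mn/TI@mHSA and 2.43-fold with P-Mn@mHSA (edgeR adjusted p 2.64e-09 and 3.05e-11). Trib3 (ENSMUSG00000032715, chromosome 2), a pseudokinase that inhibits AKT and restrains ATF4, had 129, 128 and 114 CPM with P-Mn/TI@mHSA, 132, 138 and 145 with P-Mn@mHSA and 53.8, 57.1 and 63.1 with PBS. It rose 2.13-fold with P-Mn/TI@mHSA and 2.38-fold with P-Mn@mHSA (edgeR adjusted p 1.51e-10 and 1.41e-11). Sesn2 (ENSMUSG00000028893, chromosome 4), a leucine sensor that restrains mTORC1, had 139, 139.6 and 122 CPM with P-Mn/TI@mHSA, 128, 106 and 136 with P-Mn@mHSA and 62, 61.8 and 75.5 with PBS, and rose 2.01-fold with P-Mn/TI@mHSA and 1.86-fold with P-Mn@mHSA.

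The amino acid genes had smaller fold changes. Asns (ENSMUSG00000029752, chromosome 6), which makes asparagine, had 667, 635 and 606 CPM with P-Mn/TI@mHSA, 648, 681 and 677 with P-Mn@mHSA and 498, 528 and 535 with PBS, and rose 1.22-fold with P-Mn/TI@mHSA and 1.28-fold with P-Mn@mHSA (edgeR adjusted p 0.000228 and 2.44e-05). In serine synthesis Phgdh, the enzyme that opens the pathway, rose 1.28-fold with P-Mn/TI@mHSA and 1.32-fold with P-Mn@mHSA and Psph, the enzyme that closes it, 1.12-fold with P-Mn/TI@mHSA and 1.17-fold with P-Mn@mHSA. Phgdh shares 47.8% of its 50-base stretches with pseudogenes, and Psph overlaps Cct6a on the opposite strand, so the assignment of their reads is uncertain. Mthfd2, a mitochondrial folate enzyme, had 376, 382 and 369 CPM with P-Mn/TI@mHSA, 373, 359.8 and 380.2 with P-Mn@mHSA and 302, 330.0 and 328 with PBS, and rose 1.17-fold with P-Mn/TI@mHSA and 1.16-fold with P-Mn@mHSA. Shmt2, which feeds that pathway from serine, rose 1.52-fold with P-Mn/TI@mHSA and 1.39-fold with P-Mn@mHSA. Slc7a5, the light chain of the large neutral amino acid transporter, had 763, 685 and 657 CPM with P-Mn/TI@mHSA, 612, 536 and 655 with P-Mn@mHSA and 403, 444 and 469.7 with PBS. It rose 1.6-fold with P-Mn/TI@mHSA and 1.37-fold with P-Mn@mHSA, and its heavy chain Slc3a2 rose 1.44-fold with P-Mn/TI@mHSA and 1.4-fold with P-Mn@mHSA. The cationic amino acid transporter gene Slc7a1 rose 1.3-fold with P-Mn/TI@mHSA and 1.14-fold with P-Mn@mHSA, where its call (edgeR adjusted p 0.0408) was lost in 9 of 17 alternatives, among them without P-Mn@mHSA replicate 1 (0.0798) or replicate 3 (0.256), P-Mn/TI@mHSA replicate 2 (0.0601) or PBS replicate 1 (0.242). The P-Mn@mHSA and PBS libraries of Slc7a1 overlapped. The Psph call with P-Mn/TI@mHSA was lost in 8 of 17, among them without P-Mn/TI@mHSA replicate 2 (edgeR adjusted p 0.0595) or 3 (0.224) and without PBS replicate 1 (0.0684), 2 (0.108) or 3 (0.0852). Both calls were also lost with the replicate number as a block (0.0585 for Slc7a1 and 0.0562 for Psph).

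Per length, the targets ran widely with PBS. Phgdh stood at 245 ± 8.63 FPKM (SD, n = 3), Shmt2 at 216 ± 1.93 and Asns at 189 ± 7.46 in PBS cells, with Psat1 at 181 ± 2.82, Mthfd2 at 91 ± 4.58 and Psph at 41.8 ± 0.407. Ppp1r15a, which rose most, was the lowest tested target there at 13.2 ± 1.46 FPKM, with Sesn2 at 19 ± 2.26, Chac1 at 23.1 ± 1.67 and Trib3 at 27.1 ± 2.24. With P-Mn/TI@mHSA these 4 stood at 54.3 ± 5.23, 38.3 ± 2.93, 45.5 ± 2.61 and 57.8 ± 3.97 FPKM, and with P-Mn@mHSA at 58 ± 5.35, 35.4 ± 4.42, 56.4 ± 4.15 and 64.7 ± 3.02.

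ATF4 is known to bind a composite C/EBP-ATF element, searched here as TGATGNAA on both strands in RefSeq promoter windows of GRCm38.p6, which run from 250 bases before to 50 bases after a start site. A window was present for 35 of the 40 genes. The letters occurred in 4 of 13 ATF4 targets with a window (Chac1, Asns, Trib3 and Vldlr), in Herpud1, and in 4.51% of all genes with a window. The matches before the start site are printed because they lie in genes with unlike responses: Chac1, Asns and Herpud1 were called higher with both particles and Vldlr had no count. Capitals mark the match and the letters are those of the gene's own strand, 5′ to 3′.
Chac1 (chr2:119351029-119351076, + strand): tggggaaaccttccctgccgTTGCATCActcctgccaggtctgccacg
Asns (chr6:7693210-7693252, - strand): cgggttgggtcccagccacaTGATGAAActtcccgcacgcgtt
Herpud1 (chr8:94386297-94386344, + strand): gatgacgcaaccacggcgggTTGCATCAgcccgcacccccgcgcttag
Vldlr (chr19:27216800-27216847, + strand): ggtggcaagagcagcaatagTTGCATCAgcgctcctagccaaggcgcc
Chac1, Herpud1 and Vldlr carry the same 8 letters. A match is a description of the sequence and not a binding site, and a window without one says only that these letters are not in it.

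The ER chaperones split. With P-Mn/TI@mHSA 6 of 13 (46.2%) were higher than with PBS, 2 (15.4%) lower and 5 did not pass. Of all tested genes 27.1% were called higher and 27.3% lower in that comparison. The median log2 fold change of the chaperones was 0.066. With P-Mn@mHSA 6 (46.2%) were higher, 1 (7.69%) lower and 6 did not pass, with a median of 0.10. There 24.3% of all tested genes were called higher and 24.1% lower. Per length, Hspa5, Calr and Pdia3 stood at 309 ± 3.92, 339 ± 19.4 and 199 ± 5.64 FPKM with PBS (SD, n = 3), above the other 10.

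Hspa5 (ENSMUSG00000026864, chromosome 2) encodes BiP, the main ER chaperone of the HSP70 family and the usual mark of ER stress. It had 1762, 1733 and 1548 CPM with P-Mn/TI@mHSA, 1838, 1802 and 1852 with P-Mn@mHSA and 1309.6, 1311 and 1337 with PBS. All particle libraries lay above PBS, and Hspa5 rose 1.27-fold with P-Mn/TI@mHSA (log2 fold change 0.35 ± 0.057, SE, edgeR adjusted p 2.49e-05) and 1.39-fold with P-Mn@mHSA (0.47 ± 0.057, edgeR adjusted p 6.85e-07). Dnajb9 (ENSMUSG00000014905, chromosome 12), a co-chaperone of BiP that restrains IRE1, had 23.6, 28.8 and 28.9 CPM with P-Mn/TI@mHSA, 34.5, 35.7 and 34.3 with P-Mn@mHSA and 17.8, 12.5 and 12.2 with PBS. It had the largest rise among the chaperones with both particles, 1.92-fold with P-Mn/TI@mHSA and 2.46-fold with P-Mn@mHSA (edgeR adjusted p 2.64e-06 and 3.01e-08), and the lowest level of the 13 per length, at 5.5 ± 1.23 FPKM with PBS. Calr, a lectin chaperone that holds calcium, rose 1.47-fold with P-Mn/TI@mHSA and 1.39-fold with P-Mn@mHSA, and Hyou1, the exchange factor of BiP, 1.41-fold with P-Mn/TI@mHSA and 1.43-fold with P-Mn@mHSA. The secreted stress proteins Creld2 and Manf rose 1.15-fold and 1.15-fold with P-Mn/TI@mHSA and 1.25-fold and 1.27-fold with P-Mn@mHSA. Their calls with P-Mn/TI@mHSA were lost without PBS replicate 2 (edgeR adjusted p 0.0516 for each), and that of Creld2 also without P-Mn/TI@mHSA replicate 3 (0.0566). Manf overlaps Rbm15b and Dcaf1 in the table, so reads in the overlaps are uncertain. Rbm15b rose by 0.52 on the log2 scale with P-Mn/TI@mHSA and by 0.40 with P-Mn@mHSA. Dcaf1 did not pass, with -0.090 with P-Mn/TI@mHSA and -0.038 with P-Mn@mHSA (edgeR adjusted p 0.324 and 0.702). Manf shares 6.17% of its 50-base stretches with other genes, among them Dcaf1.

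Hsp90b1 went the other way. It encodes GRP94, the ER member of the HSP90 family, which is known to fold Toll-like receptors and integrins. It had 282, 313 and 278 CPM with P-Mn/TI@mHSA, 344, 368 and 337 with P-Mn@mHSA and 474, 495 and 418 with PBS. The 3 groups did not overlap, and Hsp90b1 fell 1.59-fold with P-Mn/TI@mHSA (log2 fold change -0.67 ± 0.069, SE, edgeR adjusted p 5.81e-08) and 1.32-fold with P-Mn@mHSA (-0.40 ± 0.068, edgeR adjusted p 4.94e-05). It shares 9.76% of its 50-base stretches with other genes. Dnajc3, a co-chaperone that also inhibits eIF2α kinases, fell 1.15-fold with P-Mn/TI@mHSA (edgeR adjusted p 0.0274). That call was lost without P-Mn/TI@mHSA replicate 1 (0.149) or replicate 3 (0.0736), without PBS replicate 2 (0.121) and without the filter on low counts (0.0629).

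The disulphide isomerase genes Pdia3, Pdia4 and Pdia6 did not pass with either particle. Pdia4 had 262, 244 and 237 CPM with P-Mn/TI@mHSA, 255, 239.9 and 268 with P-Mn@mHSA and 224, 239 and 248 with PBS, and its log2 fold changes were 0.066 with P-Mn/TI@mHSA (95% confidence interval -0.066 to 0.20) and 0.10 with P-Mn@mHSA (-0.029 to 0.23). Those of Pdia3, the isomerase that works with calreticulin and calnexin, were -0.10 with P-Mn/TI@mHSA (-0.22 to 0.0099) and -0.042 with P-Mn@mHSA (-0.16 to 0.071). Those of Pdia6 were -0.047 with P-Mn/TI@mHSA (-0.16 to 0.065) and 0.089 with P-Mn@mHSA (-0.022 to 0.20). The intervals of the 3 genes reach 0.23 on the log2 scale for Pdia4 and -0.22 for Pdia3. Sdf2l1, a small partner of BiP that unfolded proteins usually induce strongly, had 168, 158 and 167 CPM with P-Mn/TI@mHSA, 176, 171 and 164 with P-Mn@mHSA and 180.4, 154 and 173 with PBS, with overlapping groups (edgeR adjusted p 0.582 and 0.925). Canx, the membrane-bound relative of Calr, had log2 fold changes of -0.11 with P-Mn/TI@mHSA and -0.086 with P-Mn@mHSA. It did not pass, although its PBS libraries lay above all particle libraries. With P-Mn/TI@mHSA against PBS, 2 of 17 alternatives called Canx lower and 1 called Pdia3 lower.

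The ER stress response element, known as the site of ATF6 and the factor NF-Y, was searched as CCAAT followed by 9 bases of any kind and CCACG, on both strands in the same windows. It occurred in 7 of 11 ER chaperones with a window, in 1 of 4 degradation genes with a window, in 0 of 13 ATF4 targets and in 0.137% of all genes. The 8 genes that carried it differed in response, so the match and 20 bases on either side of it are printed for each. Hspa5, Calr, Creld2 and Syvn1 rose with both particles.
Hspa5 (chr2:34771913-34772063, + strand): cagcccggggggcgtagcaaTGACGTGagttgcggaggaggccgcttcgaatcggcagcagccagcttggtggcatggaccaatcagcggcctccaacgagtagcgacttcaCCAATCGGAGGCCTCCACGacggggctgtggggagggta
Calr (chr8:84847055-84847113, - strand): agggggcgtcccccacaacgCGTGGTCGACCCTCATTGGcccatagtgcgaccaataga
Creld2 (chr15:88819500-88819558, + strand): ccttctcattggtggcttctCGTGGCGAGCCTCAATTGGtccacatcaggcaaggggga
Syvn1 (chr19:6046512-6046570, + strand): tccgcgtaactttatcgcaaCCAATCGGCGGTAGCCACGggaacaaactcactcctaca
Canx and Pdia6 passed with neither, Dnajc3 fell with P-Mn/TI@mHSA, and Hsp90b1, which carried the element at 2 places, fell with both.
Canx (chr11:50325780-50325838, - strand): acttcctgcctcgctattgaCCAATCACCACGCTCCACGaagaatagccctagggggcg
Pdia6 (chr12:17266471-17266529, + strand): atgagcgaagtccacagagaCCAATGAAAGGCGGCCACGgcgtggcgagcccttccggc
Dnajc3 (chr14:118937807-118937865, + strand): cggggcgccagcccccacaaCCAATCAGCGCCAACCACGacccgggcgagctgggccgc
Hsp90b1 (chr10:86705513-86705676, - strand): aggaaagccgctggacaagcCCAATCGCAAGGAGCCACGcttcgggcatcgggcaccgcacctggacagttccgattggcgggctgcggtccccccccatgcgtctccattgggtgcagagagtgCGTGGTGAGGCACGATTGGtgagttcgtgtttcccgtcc
The first block of capitals in the Hspa5 stretch is the core of the unfolded protein response element, searched as TGACGTG, which no other of the 35 genes carried and which 2.22% of all genes did. No match of these motifs overlapped another.

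Among the degradation genes, Herpud1 and Syvn1 rose. Herpud1 (ENSMUSG00000031770, chromosome 8), an organiser of the ubiquitin ligase complex that the stress factors ATF4 and ATF6 are known to induce, had 209, 194 and 184 CPM with P-Mn/TI@mHSA, 208, 212 and 227 with P-Mn@mHSA and 106, 111 and 115 with PBS. The particle libraries all lay above PBS, and it rose 1.77-fold with P-Mn/TI@mHSA and 1.95-fold with P-Mn@mHSA (edgeR adjusted p 1.36e-09 and 1.14e-10). Syvn1, which encodes the ubiquitin ligase HRD1, had 97.7, 95.6 and 94.5 CPM with P-Mn/TI@mHSA, 104, 74.9 and 115 with P-Mn@mHSA and 51.4, 53.1 and 55 with PBS, and rose 1.8-fold with P-Mn/TI@mHSA and 1.84-fold with P-Mn@mHSA. The library of P-Mn@mHSA replicate 2 was lowest of the 6 particle libraries for Syvn1 and still above PBS. Syvn1 overlaps Mrpl49 on the opposite strand, which did not pass in either comparison. Sel1l, the partner of HRD1, Edem1, which marks glycoproteins for degradation, and Derl1, a channel protein, did not pass, with log2 fold changes of -0.023, 0.035 and 0.084 with P-Mn/TI@mHSA and -0.051, -0.012 and 0.10 with P-Mn@mHSA.

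**Figure D3:**
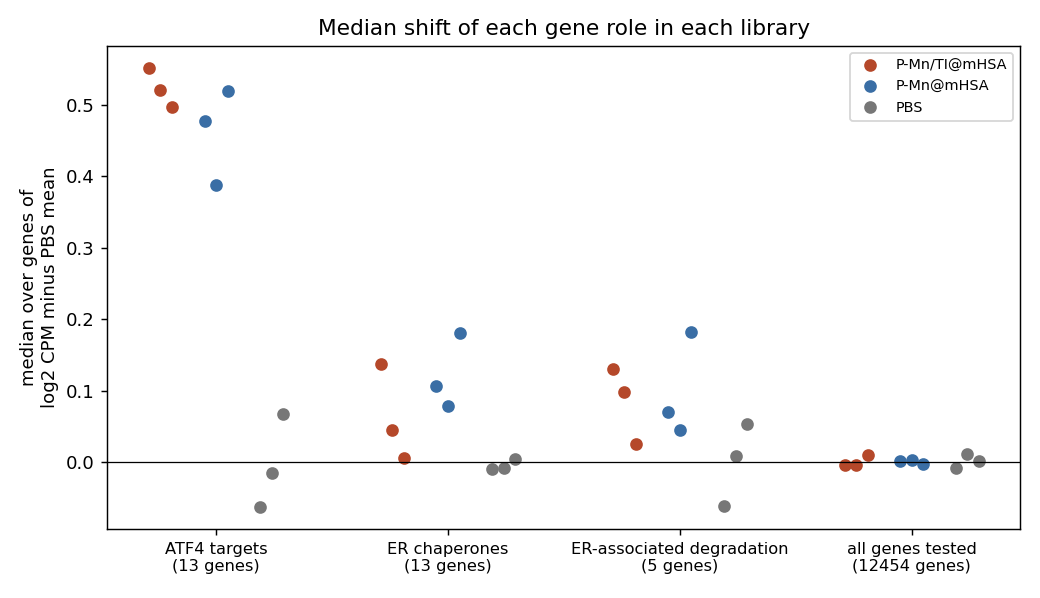
Median over the tested genes of a role of log2 CPM minus the PBS mean of each gene (vertical axis) in each of the 9 libraries (points). The ATF4 targets lie at 0.50 to 0.55 in the P-Mn/TI@mHSA libraries and at 0.39 to 0.52 in the P-Mn@mHSA libraries, above the ER chaperones at 0.0055 to 0.14 with P-Mn/TI@mHSA and 0.078 to 0.18 with P-Mn@mHSA, and all genes tested lie near 0.

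Set beside each other, the 13 tested ATF4 targets shifted more at the median than the 13 ER chaperones in every particle library. The median over the 13 tested ATF4 targets lay at 0.50 to 0.55 above the PBS mean on the log2 scale in the P-Mn/TI@mHSA libraries, at 0.39 to 0.52 in the P-Mn@mHSA libraries and at -0.064 to 0.067 in the PBS libraries. That over the 13 ER chaperones lay at 0.0055 to 0.14 with P-Mn/TI@mHSA, at 0.078 to 0.18 with P-Mn@mHSA and at -0.0094 to 0.0048 with PBS. The medians hide the split among chaperones, where Hspa5, Calr and Hyou1 had log2 fold changes of 0.35, 0.55 and 0.49 with P-Mn/TI@mHSA, beside 0.29, 0.36 and 0.52 for Asns, Phgdh and Slc3a2. The further genes described below did not show this contrast. The median log2 fold change of the other ATF4-linked genes was 0.18 with P-Mn/TI@mHSA and 0.17 with P-Mn@mHSA. That of the other ER folding genes was 0.21 with each particle. The difference between the roles was not tested, because the genes were chosen with results known.

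Further genes of these pathways were taken from lists by role, which were drawn up with earlier results of these data known. Their shares are read against all tested genes, of which 27.1% were called higher and 27.3% lower with P-Mn/TI@mHSA and 24.3% higher and 24.1% lower with P-Mn@mHSA. Of 23 tested genes linked to ATF4 outside the 13 targets, 12 (52.2%) were higher and 6 (26.1%) lower with P-Mn/TI@mHSA and 11 (47.8%) were higher and 6 (26.1%) lower with P-Mn@mHSA. The lower shares are thus near those of all genes. Atf3, a stress transcription factor gene, had 224 ± 24.8 CPM with P-Mn/TI@mHSA, 260.3 ± 18.1 with P-Mn@mHSA and 35.3 ± 6.73 with PBS (SD, n = 3 each) and rose 6.33-fold with P-Mn/TI@mHSA and 7.36-fold with P-Mn@mHSA. Ddit4, which encodes an inhibitor of mTORC1, had 103 ± 4.42 CPM with P-Mn/TI@mHSA, 121 ± 8.92 with P-Mn@mHSA and 24.2 ± 3.44 with PBS and rose 4.25-fold with P-Mn/TI@mHSA and 4.98-fold with P-Mn@mHSA. The lower genes included Slc7a11, the cystine transporter gene, with 67.3 ± 7.28 CPM with P-Mn/TI@mHSA, 88.1 ± 4.01 with P-Mn@mHSA and 153 ± 2.53 with PBS (SD, n = 3 each), a fall of 2.27-fold with P-Mn/TI@mHSA and 1.74-fold with P-Mn@mHSA. They also included Cth, which makes cysteine, with 55.4 ± 1.19 CPM with P-Mn/TI@mHSA, 69.5 ± 6.11 with P-Mn@mHSA and 94.4 ± 2.08 with PBS (SD, n = 3 each) and a fall of 1.7-fold with P-Mn/TI@mHSA and 1.36-fold with P-Mn@mHSA. Slc7a3, a transporter of cationic amino acids, rose 4.2-fold with P-Mn/TI@mHSA and 6.19-fold with P-Mn@mHSA from few reads, with 18, 23 and 29 counts with P-Mn/TI@mHSA, 34, 23 and 42 with P-Mn@mHSA and 4, 4 and 8 with PBS. Of 20 cytosolic aminoacyl-tRNA synthetases, 11 (55.0%) were higher and 5 (25.0%) lower with P-Mn/TI@mHSA and 10 (50%) were higher and 4 (20%) lower with P-Mn@mHSA, the lower shares again near those of all genes. Aars rose 1.39-fold and Iars 1.32-fold with P-Mn@mHSA and Vars 1.43-fold with P-Mn/TI@mHSA, while Farsb fell 1.53-fold with P-Mn/TI@mHSA and 1.55-fold with P-Mn@mHSA and Rars 1.45-fold with P-Mn/TI@mHSA.

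Of 18 other ER folding genes, edgeR called 8 (44.4%) higher and 1 (5.56%) lower with P-Mn/TI@mHSA and 10 (55.6%) higher and 1 (5.56%) lower with P-Mn@mHSA, against 27.1% higher and 27.3% lower of all tested genes with P-Mn/TI@mHSA and 24.3% and 24.1% with P-Mn@mHSA. P4hb, a further disulphide isomerase gene, had 2485 ± 105 CPM with P-Mn/TI@mHSA, 2606 ± 101 with P-Mn@mHSA and 1239 ± 55.2 with PBS (SD, n = 3 each) and rose 2.01-fold with P-Mn/TI@mHSA and 2.1-fold with P-Mn@mHSA. Txndc11, a thioredoxin-like ER gene, rose 1.68-fold with P-Mn/TI@mHSA and 1.77-fold with P-Mn@mHSA. P4hb is also a subunit of collagen prolyl hydroxylase. Erp29, a luminal ER protein gene, rose 1.49-fold with P-Mn/TI@mHSA. Fkbp14, a prolyl isomerase gene with a mean of 2.43 ± 0.322 CPM with P-Mn@mHSA and 1.16 ± 0.181 with PBS, rose 2.09-fold with P-Mn@mHSA. Fkbp14 (227 counts over the 9 libraries) overlaps Plekha8 (4263 counts) on the opposite strand, and Erp29 overlaps Naa25, so their reads are uncertain. Of 23 other genes of ER degradation and translocation, 5 (21.7%) rose and 10 (43.5%) fell with P-Mn/TI@mHSA, and 7 (30.4%) rose and 9 (39.1%) fell with P-Mn@mHSA, so the shares that rose lie near those of all genes. Sec63, a translocon co-chaperone gene, fell 1.74-fold with P-Mn/TI@mHSA and 1.56-fold with P-Mn@mHSA and the mannosidase gene Edem3 1.71-fold with P-Mn/TI@mHSA and 1.52-fold with P-Mn@mHSA, while Sec61a1, the translocon pore, rose 1.47-fold with P-Mn@mHSA. Sec11c, a signal peptidase subunit gene, fell 1.69-fold with P-Mn/TI@mHSA.

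Of 10 tested genes of unfolded protein response signalling, 7 (70.0%) were higher and 1 (10.0%) lower with each particle, against 27.1% higher and 27.3% lower of all tested genes with P-Mn/TI@mHSA and 24.3% and 24.1% with P-Mn@mHSA. Wfs1, an ER membrane protein gene, rose 2.73-fold with P-Mn/TI@mHSA and 3.05-fold with P-Mn@mHSA, and Creb3l2, a transmembrane transcription factor gene related to Atf6, 2.2-fold with P-Mn/TI@mHSA and 2.08-fold with P-Mn@mHSA. Bak1, which encodes a pore-forming cell death protein, rose 1.45-fold with P-Mn/TI@mHSA and 1.54-fold with P-Mn@mHSA. It shares 17.1% of its 50-base stretches with another gene, so the assignment of its reads is uncertain. Of 10 genes of eIF2 control outside the 40, 5 (50%) were higher and 3 (30.0%) lower with P-Mn/TI@mHSA and 4 (40%) were higher and 0 lower with P-Mn@mHSA. Without P-Mn@mHSA replicate 2 the last pair was 5 and 2, and DESeq2 and limma gave 3 and 0 in that comparison, with 0 lower at an unadjusted p under 0.05. Eif2b5, a subunit of the exchange factor that eIF2α phosphorylation blocks, rose 1.36-fold with P-Mn/TI@mHSA and 1.32-fold with P-Mn@mHSA, and Eif2ak2, the kinase PKR that double-stranded RNA activates, fell 1.4-fold with P-Mn/TI@mHSA. Eif2s1, the gene of eIF2α itself, fell 1.29-fold with P-Mn/TI@mHSA, and the exchange factor subunit genes Eif2b4 and Eif2b2 rose 1.22-fold and 1.15-fold with P-Mn@mHSA. Of 11 genes of the mitochondrial unfolded protein response, 1 (9.09%) was higher and 3 (27.3%) lower with P-Mn/TI@mHSA, where 27.3% of all tested genes were lower, and 0 were higher and 2 (18.2%) lower with P-Mn@mHSA. For P-Mn@mHSA no test of edgeR, DESeq2 or limma and no unadjusted p under 0.05 gave a higher one. The protease gene Yme1l1 fell 2.27-fold with P-Mn/TI@mHSA and 1.84-fold with P-Mn@mHSA. The protease subunit gene Clpx fell 1.27-fold and the co-chaperone gene Dnaja3 rose 1.15-fold with P-Mn/TI@mHSA. With P-Mn@mHSA the protease gene Htra2 fell 1.13-fold. Eif2b4, Dnaja3 and Htra2 overlap Snx17, Coro7 and Aup1 on the opposite strand, so the assignment of their reads is uncertain.

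The particles themselves differ by the TRAF6 inhibitor. Between P-Mn/TI@mHSA and P-Mn@mHSA, edgeR called 3 of the 39 genes, against 3.82% of all tested genes. It called 0 higher and 3 (7.69%) lower with P-Mn/TI@mHSA, where 1.48% of all tested genes were called higher and 2.34% lower. For 13 genes (33.3%) the groups did not overlap, against 24% of all tested genes, and the median log2 fold change of the 39 was -0.054. At an unadjusted p under 0.05, 3 were higher and 9 lower. DESeq2 called 0 higher and 3 lower, and limma on log2(FPKM + 1) called none.

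The 3 genes were Ddit3, Chac1 and Hsp90b1. Ddit3 fell 1.35-fold with the inhibitor (log2 fold change -0.43 ± 0.11, SE, edgeR adjusted p 0.0252), Chac1 1.24-fold (-0.31 ± 0.077, edgeR adjusted p 0.0273) and Hsp90b1 1.2-fold (-0.27 ± 0.069, edgeR adjusted p 0.034). Their libraries did not overlap between the particles. Ddit3 and Hsp90b1 thus stood farther from PBS with the inhibitor than without it, and Chac1 nearer to PBS. None of these calls held in every fit that left out 1 library. Without P-Mn@mHSA replicate 2 the edgeR adjusted p was 0.138 for Ddit3, 0.118 for Chac1 and 0.11 for Hsp90b1, and without P-Mn/TI@mHSA replicate 1 it was 0.117, 0.0664 and 0.16. The Ddit3 call was also lost without P-Mn/TI@mHSA replicate 2 (0.0979), the Chac1 call without P-Mn@mHSA replicate 1 (0.0542) or P-Mn/TI@mHSA replicates 2 (0.0698) or 3 (0.133), and the Hsp90b1 call without P-Mn@mHSA replicate 1 (0.0782) or P-Mn/TI@mHSA replicate 3 (0.137). Chac1 was also lost with the replicate number as a block (0.0534). Over the 9 fits that left out 1 library, the log2 fold change kept its sign, from -0.51 to -0.34 for Ddit3, from -0.35 to -0.25 for Chac1 and from -0.32 to -0.23 for Hsp90b1.

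The other 36 genes did not pass. Dnajb9, with 23.6, 28.8 and 28.9 CPM with P-Mn/TI@mHSA and 34.5, 35.7 and 34.3 with P-Mn@mHSA, did not overlap between the particles (log2 fold change -0.36 ± 0.12, edgeR adjusted p 0.0898). The same held for the transporter gene Slc7a5, with 763, 685 and 657 CPM with P-Mn/TI@mHSA and 612, 536 and 655 with P-Mn@mHSA (log2 fold change 0.22 ± 0.075, edgeR adjusted p 0.0974). These pairs of groups lay in opposite directions, lower for Dnajb9 and higher for Slc7a5. Of the 17 alternatives, 3 called Dnajb9 lower, 2 called Slc7a5 higher and 1 called Slc7a1 higher. The lowest edgeR adjusted p with 1 library left out was 0.0438 for Dnajb9, 0.0278 for Slc7a5 and 0.0345 for Slc7a1. Intervals were narrow for the abundant genes, with -0.12 to 0.12 on the log2 scale for Xbp1, -0.11 to 0.11 for Psat1 and -0.21 to 0.017 for Atf4, so larger differences of these transcripts between the particles lie outside them. Outside the 40 genes, edgeR called 6 falls (5.22%) and 0 rises among 115 tested genes of the lists by role, against 2.34% lower and 1.48% higher of all tested genes. DESeq2 called 8 falls and 1 rise, limma 2 falls and 0 rises, and edgeR without P-Mn@mHSA replicate 2 called 3 falls and 0 rises. At an unadjusted p under 0.05 the full edgeR fit gave 23 falls and 7 rises. The 6 falls called by edgeR were those of Slc7a11 (1.31-fold), Cth (1.25-fold), Eif2ak2 (1.27-fold), Rars (1.2-fold), Dnajc10 (1.2-fold) and Ero1a (1.24-fold). Ero1a encodes the oxidase that recharges the disulphide isomerases.

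**Figure D4:**
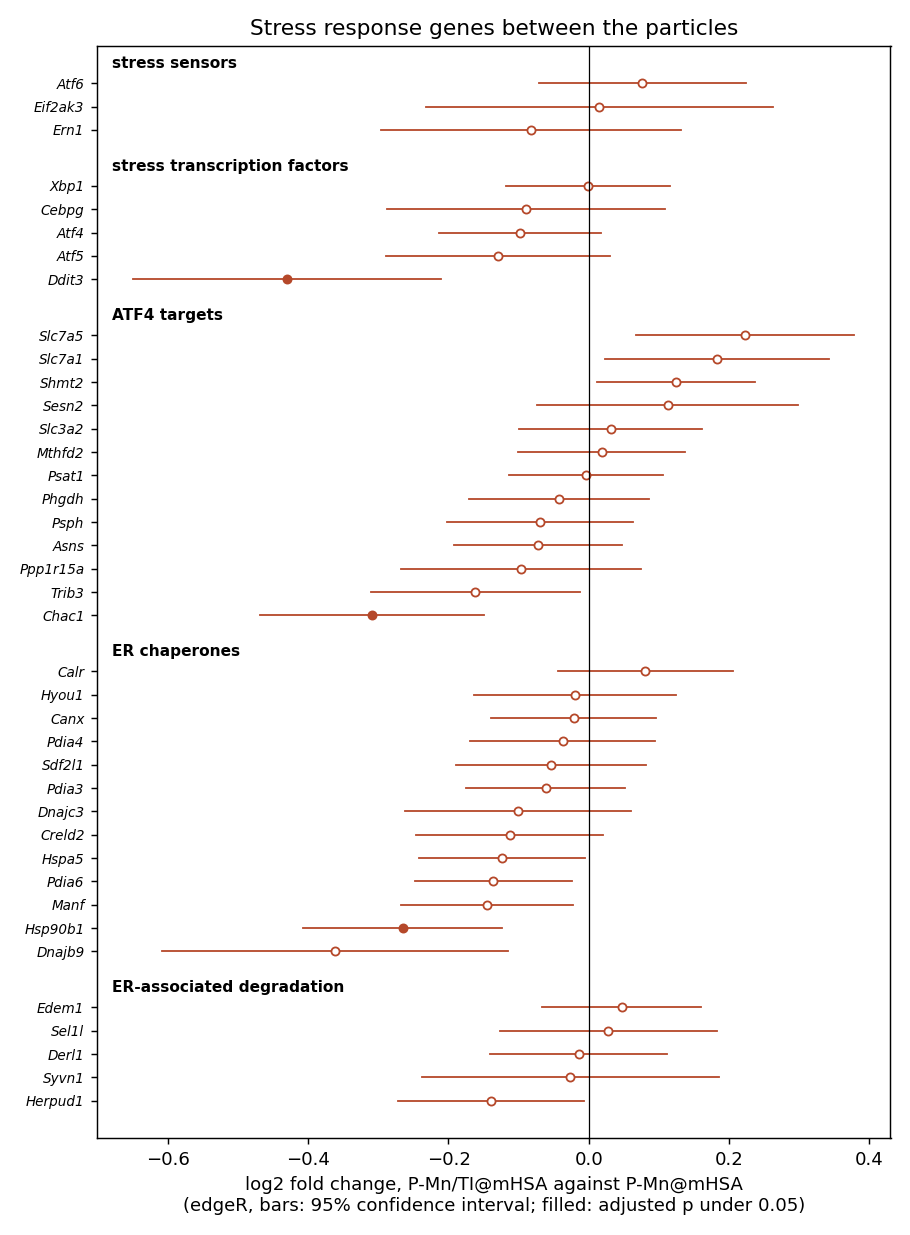
Log2 fold changes of P-Mn/TI@mHSA over P-Mn@mHSA (horizontal axis, edgeR, bars are 95% confidence intervals, n = 3 libraries per group) of the 39 tested genes, in rows by role. The filled points of Ddit3, Chac1 and Hsp90b1 passed an adjusted p of 0.05, all below 0, and the intervals of most others cross 0.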

How the data were processed

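RNA from 9 libraries of RAW264.7 cells was sequenced. Per the file headers, the deposited table holds raw read counts and FPKM values per gene, and in these values FPKM was proportional to count over gene length within each library. The submitters' processing notes list cutadapt 1.9, FastQC and the build GRCm38. Aligner, counter, strand setting and treatment of multiply mapped reads: not given in the sources used here. Starts of 1222 of 38989 genes in the table lay within 1000 bases of RefSeq GRCm38.p6, so only chromosomes are given from the table. The promoter sequences and their coordinates are RefSeq's.

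The members, their roles and the lists were chosen with earlier results of these data known. Counts were fitted with edgeR 4.0.16 (R 4.3.3): filterByExpr kept 12454 genes, libraries were scaled by TMM, and a quasi-likelihood model of the 3 groups used all 9 libraries. Tests were two-sided with Benjamini-Hochberg adjustment over all genes tested, at 0.05. SE is the absolute log2 fold change divided by the square root of F. Alternatives were DESeq2 1.42.0, limma 3.58.1 on log2(FPKM + 1), other scalings and filters, the 6 libraries of a comparison alone, a replicate block, and each library left out. All 40 genes are named, and up to 3 genes per further list and comparison, those called without overlap and with the largest change. Intervals and floors cover counting error and replicate spread of these libraries only. The overlap of genes was read from the table's coordinates, and shared 50-base stretches from GENCODE M21 transcripts.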

Additional observations from a re-analysis of the deposited data

How the results depend on the processing

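The edgeR alternatives changed 1 choice each, while DESeq2 also changed size factors and the genes tested, and limma also the values. Of the genes called against PBS, 22 of 26 with P-Mn/TI@mHSA and 23 of 24 with P-Mn@mHSA passed in all 17 alternatives, and no called gene changed direction. The exceptions are named above. Leaving out 1 library gave 2 to 5 lower genes (3 in the full fit) with P-Mn/TI@mHSA and 1 to 2 (1 in the full fit) with P-Mn@mHSA. With upper-quartile scaling 6 genes were lower with P-Mn/TI@mHSA.

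The comparison of the particles was less stable. Its 476 calls among all genes became 129 to 794 when 1 library was left out, 791 without the filter on low counts, 312 with a replicate block and 155 with limma. The 3 calls among the 39 genes became 0 to 5 (0 to 2 higher, 0 to 4 lower) when 1 library was left out, 5 with 1 higher without the filter, and 0 (0 lower) with limma. The replicate numbers pair no samples: neither label nor correlation does so (-0.059 to 0.048 between same-numbered deviations from group means). The block changed no other call among the 39 genes than those named. In the further lists with P-Mn/TI@mHSA against PBS it gave 8 higher synthetases (11 without the block), 5 lower ATF4-linked genes (6), and 4 higher and 9 lower ER degradation genes (5 and 10). With P-Mn@mHSA against PBS it gave 3 higher eIF2 genes (4), and between the particles 2 lower synthetases (1). The median of the ATF4 targets between the particles was -0.0039 and ran from -0.019 to 0.0054 over the fits that left out 1 library.

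Genes without a call changed sign near 0. Between the particles the log2 fold change ran, over the fits that left out 1 library, from -0.029 to 0.016 for Xbp1, -0.069 to 0.16 for Eif2ak3, -0.18 to 0.10 for Syvn1, -0.018 to 0.011 for Psat1, -0.079 to 0.024 for Phgdh, -0.0028 to 0.037 for Mthfd2, -0.020 to 0.082 for Slc3a2, -0.034 to 0.11 for Sel1l, -0.14 to 0.034 for Ern1, -0.078 to 0.0036 for Pdia4, -0.10 to 0.064 for Hyou1, -0.041 to 0.028 for Derl1, -0.18 to 0.0008 for Cebpg and -0.061 to 0.0046 for Canx. Xbp1 was at 0.0002 without the filter and at 0.0005 with the 6 libraries alone. With P-Mn/TI@mHSA against PBS it ran from -0.10 to 0.0099 for Eif2ak3, -0.084 to 0.028 for Sel1l and -0.11 to 0.0027 for Sdf2l1. With P-Mn@mHSA against PBS it ran from -0.052 to 0.056 for Sdf2l1, -0.029 to 0.014 for Edem1, -0.22 to 0.0095 for Eif2ak3 and -0.13 to 0.014 for Sel1l. There Sdf2l1 was at -0.017 with upper-quartile scaling and at -0.0019 with at least 10 counts in every library, and Edem1 at 0.0004 without the filter. The cause of these changes was not tested.

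Some genes without a call gained one in a few of the 17 alternatives. With P-Mn/TI@mHSA against PBS these were 6 genes, Ern1, Cebpg, Canx and Pdia3 (lower) and Atf6 and Psat1 (higher). With P-Mn@mHSA against PBS they were 3, Ern1 and Ddit3 (lower) and Psat1 (higher). Between the particles they were 3, Dnajb9 (lower) and Slc7a5 and Slc7a1 (higher). With 3 libraries per group, small changes of genes such as Eif2ak3, with a low count, are below what these data resolve.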
